A study of Sus scrofa with 16 samples.

Results

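The 8 genes described here encode fibronectin (FN1), the thrombospondins THBS1, THBS2, THBS3 and THBS4, tenascin C (TNC), periostin (POSTN) and SPARC, all secreted glycoproteins of the extracellular matrix. They were taken by name from 29552 named entries of a gene count table, and all 8 were found and tested among 14530 genes. The RNA came from porcine valvular interstitial cells, which populate the aortic valve leaflet and resemble fibroblasts, of animals aged 5 to 6 months. The 4 groups were female plastic, female gel, male plastic and male gel, each with 4 biological replicates, or 16 polyA RNA libraries in all. Plastic was tissue culture plastic, on which the labels regard the cells as myofibroblasts. Gel was a PEG-norbornene hydrogel with a modulus of about 5.8 kPa, on which the labels regard them as quiescent fibroblasts. All cells had been kept for 48 hours in Media 199 with 1% fetal bovine serum, and no genotype or drug differed between groups.

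Fibronectin is secreted as a dimer and pulled into fibrils by cells through integrins, chiefly the alpha5 beta1 receptor that ITGA5 and ITGB1 encode. Matricellular proteins (thrombospondins, tenascins, periostin, SPARC) bind that matrix and cell receptors, and change adhesion, growth factor release and collagen assembly without forming the main scaffold. In valve leaflets and other connective tissue these genes are known from wound repair, fibrosis and myofibroblast activation. The comparisons below ask how their RNA levels differed between plastic and gel in each sex, whether that change differed between the sexes, and whether the sexes differed on one surface.

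The libraries held 16.9 to 27.4 M counts of named genes (M, mega), and male gel 2 was the shallowest. Levels are CPM (read counts scaled to a fixed library total) with TMM factors, which correct for RNA composition. Transcript lengths were not used here, so a level is compared between libraries and not between genes. Fibroblast markers were found in every library, with VIM (vimentin) at 4829 to 8174 CPM and COL1A1 (type I collagen) at 8826 to 17518 CPM. Others of that list were lower, among them THY1 at 78.7 to 259 CPM and PDGFRB at 129 to 313 CPM. Of the leukocyte markers PTPRC (CD45) was at 0 in 15 of 16 libraries and CD3E at 0 in 16, and the cardiac TNNT2 was at 0 in 16. Of the other leukocyte markers, CSF1R was at 0 in 9 libraries and CD79A in 5. Among muscle markers MYH7 was at 0 in 12, MYL2 in 15, and MYH1 and CKM in 14 each. Some other markers of these lists were found in every library. Among them were the leukocyte CD14 at 3.16 to 11.3 CPM and LAPTM5 at 0.565 to 33.7 CPM. Of the striated muscle markers, ACTC1 had 0.0725 to 95.5 CPM and TNNI3 0.849 to 2.05 CPM. The endothelial PECAM1 was present in each library at 21.5 to 124 CPM and CDH5 at 4.97 to 174 CPM. Other endothelial markers were lower, and ROBO4 was at 0 in 3 libraries and LYVE1 in 6. The summed level of 7 smooth muscle and pericyte markers moved with the surface, at 1168 to 2146 CPM in female plastic against 378 to 505 CPM in female gel, and at 1472 to 1935 CPM in male plastic against 364 to 490 CPM in male gel. Of these 7 markers 6 were tested; 5 rose and 1 fell on plastic in each sex. The pericyte marker RGS5 was at 0 in 5 libraries and reached 0.145 CPM at most. Of 12 endothelial markers 2 rose and 0 fell in each sex. Of 9 fibroblast markers 1 rose and 3 fell in female cells, and 3 rose and 3 fell in male cells. In each sex 1 of 3 tested leukocyte markers rose and 1 fell, and 1 of 2 tested striated muscle markers rose. A rise or fall here is an adjusted p under 0.05 by the edgeR test. Over all tested genes 12.7% rose and 11.3% fell in female cells, and 12.9% rose and 12.9% fell in male cells. The part of these markers in the results below was not tested. In bulk RNA, fewer cells of a type and less RNA per cell cannot be told apart.

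On plastic, 4 of the 8 genes were called higher in female cells (FN1, THBS1, TNC and SPARC) and 1 lower (POSTN). Over all tested genes 12.7% were called higher and 11.3% lower in that contrast, 23.9% in all. In male cells 5 of 8 were called higher (the same genes and THBS4) and 1 lower (POSTN), against 12.9% higher and 12.9% lower over all tested genes, 25.8% in all. A call is an adjusted p under 0.05 over all tested genes. CPM did not overlap between surfaces for 4 of 8 genes in female cells and 6 of 8 in male cells, against 27.7% and 28.9% of all tested genes. The 5 called higher and the 6 without overlap in male cells include THBS4. Its reads were few, and its direction there was partly fixed by the filter on low counts. The median log2 change of the 8 genes was 0.50 in female and 0.47 in male cells, beside -0.037 and -0.034 over all tested genes. With library totals in place of TMM, a scaling added after the data were seen, the median of all tested genes moved to -0.28 in female and -0.27 in male cells. The split of called genes was then 1072 higher and 4330 lower in female cells, against 1839 and 1637 with TMM, and 1141 higher and 4810 lower in male cells, against 1876 and 1872 with TMM.

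**Figure D1:**
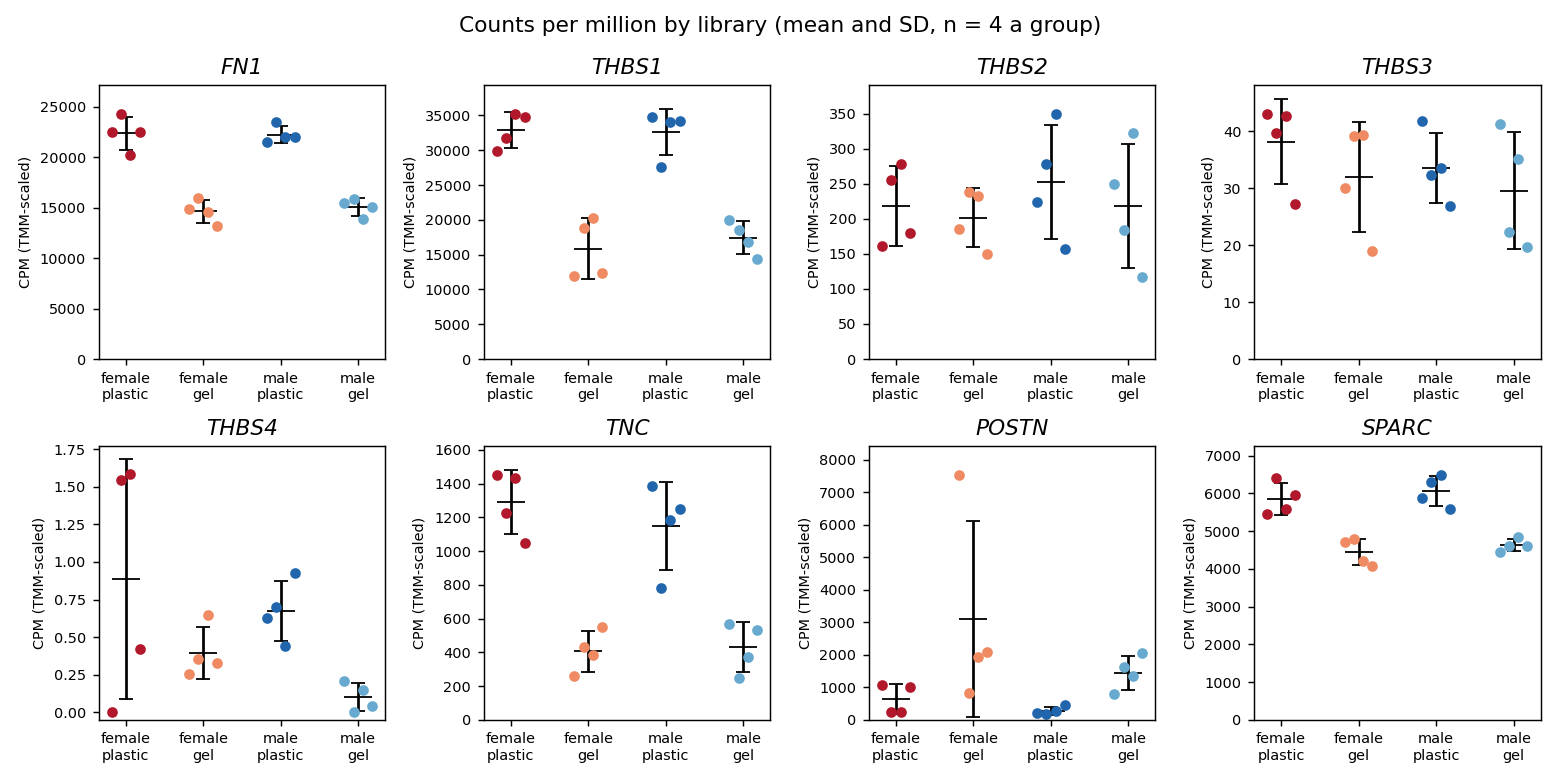
TMM-scaled CPM of each of the 8 genes (vertical axes, starting at 0 or, for THBS4, just under it) in every library of the 4 groups, with the mean and SD of the 4 libraries. FN1, THBS1, TNC and SPARC lay higher in all plastic libraries than in all gel libraries of the same sex, POSTN was lower on plastic, and THBS2 and THBS3 overlapped.

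Fibronectin, the adhesive glycoprotein that starts matrix assembly, rose about 1.5-fold on plastic in both sexes. FN1 (chromosome 15, 117658158 to 117737145 on Sscrofa11.1) had 22512, 24232, 20221 and 22485 CPM in female plastic 1 to 4, against 14814, 15977, 14590 and 13192 CPM in female gel 1 to 4. In male cells FN1 had 21462, 23427, 21958 and 21999 CPM on plastic 1 to 4, against 15446, 15817, 13846 and 15101 CPM on gel 1 to 4. Each plastic library lay above each gel library, and within a group the highest value was at most 1.21 times the lowest. FN1 had a log2 change of 0.61 (SE 0.095, adjusted p = 0.000188) in female cells and 0.56 (SE 0.095, adjusted p = 0.000376) in male cells. With library totals in place of TMM it was smaller, at 0.37 (adjusted p = 0.00397) in female and 0.32 (adjusted p = 0.00834) in male cells. Relative to the median of all tested genes, FN1 changed by 0.65 in female and 0.60 in male cells under both scalings. The scaling moves all genes by nearly the same amount, so a value relative to their median could hardly differ. FN1 was higher on plastic in 4 of 4 female and 4 of 4 male replicate numbers, by 1.39 to 1.70 times in female cells and 1.39 to 1.59 times in male cells. FN1 took 2.07 ± 0.18% of all counts in female plastic and 1.60 ± 0.097% in female gel, and 2.03 ± 0.083% in male plastic and 1.62 ± 0.078% in male gel (mean ± SD, n = 4 each). Gene counts do not separate the splice forms of fibronectin, among them the extra domain A form that myofibroblasts make.

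Thrombospondin 1, a trimer that binds CD47 and CD36 and can release TGF-beta from its latent complex, rose 2.07-fold in female and 1.87-fold in male cells on plastic, at very high counts. THBS1 (chromosome 1, 131728781 to 131746098) had 29826, 31771, 35167 and 34785 CPM in female plastic 1 to 4, against 11921, 18847, 20307 and 12383 CPM in female gel 1 to 4. In male cells THBS1 had 34722, 27642, 34070 and 34141 CPM on plastic 1 to 4, against 20002, 18567, 16888 and 14393 CPM on gel 1 to 4. All plastic libraries of both sexes lay above all gel libraries, and the lowest gel values were those of female gel 1, female gel 4 and male gel 4. The log2 change of THBS1 was 1.05 (SE 0.17, adjusted p = 0.000243) in female cells and 0.90 (SE 0.17, adjusted p = 0.000826) in male cells. By replicate number the THBS1 change ran from 1.69 to 2.81 times in female cells and from 1.49 to 2.37 times in male cells.

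THBS1 had more reads than any other named gene in 13 of 16 libraries, the 8 plastic libraries among them. In the other 3, female gel 1, female gel 4 and male gel 4, that gene was FN1. These are ranks of read counts, which grow with transcript length. THBS1 took 3.04 ± 0.16% of counts in female plastic and 1.73 ± 0.43% in female gel, and 2.99 ± 0.32% in male plastic and 1.88 ± 0.24% in male gel. The 8 genes together took 5.85 ± 0.15% of counts in female plastic and 4.23 ± 0.39% in female gel, and 5.73 ± 0.26% in male plastic and 4.24 ± 0.20% in male gel (mean ± SD, n = 4 each). The count ratio of THBS1 to FN1 was 1.48 ± 0.20 in female plastic and 1.08 ± 0.26 in female gel, and 1.48 ± 0.20 in male plastic and 1.16 ± 0.15 in male gel. The ratios overlapped between surfaces in both sexes.

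**Figure D2:**
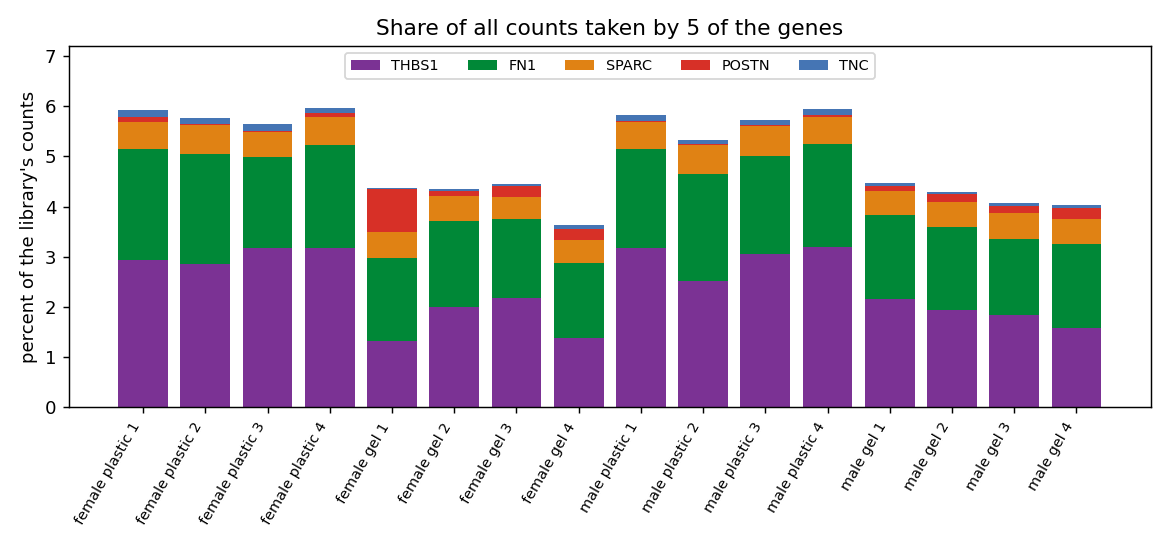
Percent of each library's counts (vertical axis, from 0) taken by THBS1, FN1, SPARC, POSTN and TNC, stacked, in the 16 libraries in the order female plastic, female gel, male plastic and male gel. The stacks are taller in the 8 plastic libraries, mainly through THBS1 and FN1, and POSTN is widest in female gel 1.

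Thrombospondin 2, the closest relative of thrombospondin 1 and like it an inhibitor of vessel growth, was not called. THBS2 (chromosome 1, 854473 to 882467) had 161, 255, 278 and 179 CPM in female plastic 1 to 4, against 186, 239, 232 and 150 CPM in female gel 1 to 4. Male THBS2 was 224, 278, 349 and 158 CPM on plastic 1 to 4, against 250, 184, 322 and 117 CPM on gel 1 to 4. The surfaces overlapped in both sexes, and the larger differences were between replicate numbers. The log2 change of THBS2 was 0.12 in female cells (95% interval -0.51 to 0.74, adjusted p = 0.807) and 0.21 in male cells (-0.41 to 0.83, adjusted p = 0.638), and both values turned negative with library totals in place of TMM. Reads of THBS1 exceeded those of THBS2 by 158 ± 37.4 times in female plastic and 78.4 ± 10.1 times in female gel. In male cells that count ratio was 142 ± 56.4 on plastic and 89.1 ± 30.1 on gel (mean ± SD, n = 4 each).

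Thrombospondins 3 and 4 belong with COMP to the pentameric branch of the family, which lacks the repeats that activate TGF-beta. THBS3 (chromosome 4, 94612702 to 94623905) averaged 38.1 ± 7.41 CPM in female plastic and 31.9 ± 9.64 CPM in female gel, and 33.6 ± 6.15 CPM in male plastic and 29.5 ± 10.3 CPM in male gel (SD, n = 4 each). The THBS3 groups overlapped, with log2 changes of 0.26 in female cells (95% interval -0.29 to 0.80, adjusted p = 0.503) and 0.18 in male cells (-0.37 to 0.73, adjusted p = 0.644; negative with library totals). The lncRNA LOC106510137, which overlaps the THBS3 locus, had 62 to 195 counts per library. The strand setting of the counting is not given in the sources used here, so reads of the pair cannot be told apart.

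THBS4 (chromosome 2, 88729531 to 88780759) lay near the detection limit. It had 0, 33, 36 and 10 reads in female plastic 1 to 4, against 7, 9, 19 and 9 in female gel 1 to 4. In male cells THBS4 had 13, 16, 10 and 22 reads on plastic 1 to 4, against 6, 0, 4 and 1 on gel 1 to 4. A count of 0 allows up to 0.133 CPM in female plastic 1 and 0.169 CPM in male gel 2, as counting error alone. The male surfaces did not overlap and the female ones did. The log2 change of THBS4 was 2.56 in male cells (SE 0.89, adjusted p = 0.044) and 1.15 in female cells (SE 0.75, adjusted p = 0.296), and the difference between the sexes was not called (adjusted p = 0.776). THBS4 passed the filter on low counts mainly through plastic, where 5 libraries reached the limit of 0.404 CPM against 1 on gel and 0 in male gel, so its direction in male cells was partly fixed by the filter. The male call was lost by limma-voom (adjusted p = 0.107), with no filter (0.0515), and without any 1 of 11 single libraries: male plastic 1 to 4, male gel 2 to 4 and female gel 1 to 4 (0.0509 to 0.0987).

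Tenascin C, a large multi-armed glycoprotein known at wound edges and sites of mechanical strain, rose most among the genes with high counts. TNC (chromosome 1, 255533235 to 255630381) had 1451, 1228, 1435 and 1047 CPM in female plastic 1 to 4, against 261, 432, 382 and 553 CPM in female gel 1 to 4. Male TNC was 1388, 782, 1183 and 1248 CPM on plastic 1 to 4, against 568, 246, 373 and 534 CPM on gel 1 to 4. All plastic libraries lay above all gel libraries, and male plastic 2 was the lowest on plastic. TNC had a log2 change of 1.66 (SE 0.26, adjusted p = 0.000196) in female cells and 1.42 (SE 0.26, adjusted p = 0.000691) in male cells. By replicate number TNC was 1.89 to 5.56 times as high on plastic in female cells and 2.34 to 3.18 times in male cells. RefSeq lists 19 transcripts of TNC, and gene counts do not part them.

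Periostin, which binds collagen and fibronectin, helps collagen crosslinking and shapes the developing valve, went the other way. POSTN (chromosome 11, 13225183 to 13258973) had 1081, 231, 249 and 1001 CPM in female plastic 1 to 4, against 7524, 837, 1925 and 2082 CPM in female gel 1 to 4. Male POSTN was 199, 188, 282 and 460 CPM on plastic 1 to 4, against 791, 1619, 1345 and 2042 CPM on gel 1 to 4. The male surfaces did not overlap, while female plastic 1 and 4 lay above female gel 2. The log2 change of POSTN was -2.27 in female cells (SE 0.63, adjusted p = 0.0144) and -2.36 in male cells (SE 0.63, adjusted p = 0.0112). POSTN was lower on plastic in 4 of 4 replicate numbers of each sex, at 0.129 to 0.481 of the gel value in female cells and 0.116 to 0.251 in male cells.

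Without female gel 1 alone, which leaves female plastic 1 in the fit, the female POSTN change was -1.34 and was not called (adjusted p = 0.0853). With the replicate number as a block, POSTN changed by -2.17 in female cells (SE 0.29, adjusted p = 0.000151) and by -2.37 in male cells (SE 0.28, adjusted p = 6.37e-05). By read count POSTN ranked between 8 and 127 among named genes in the gel libraries, and between 91 and 881 in the plastic libraries. The lncRNA LOC102166397 overlaps the POSTN locus and had 3 to 24 counts per library.

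SPARC, a calcium-binding glycoprotein that guides the handling of procollagen, had the smallest called change. SPARC (chromosome 16, 71368164 to 71380972) had 5456, 6396, 5584 and 5959 CPM in female plastic 1 to 4, against 4711, 4778, 4221 and 4064 CPM in female gel 1 to 4. In male cells SPARC had 5866, 6294, 6485 and 5594 CPM on plastic 1 to 4, against 4439, 4616, 4853 and 4614 CPM on gel 1 to 4. All plastic libraries lay above all gel libraries. For SPARC the log2 change was 0.40 (SE 0.091, adjusted p = 0.0045) in female cells and 0.39 (SE 0.091, adjusted p = 0.00505) in male cells. Both SPARC calls were lost with library totals in place of TMM, at 0.15 (adjusted p = 0.159) in female and 0.15 (adjusted p = 0.171) in male cells. Relative to the median of all tested genes, SPARC changed by 0.43 in female and 0.42 in male cells under both scalings. As for FN1, this value could hardly differ between the scalings, so it is no test of the SPARC calls.

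**Figure D3:**
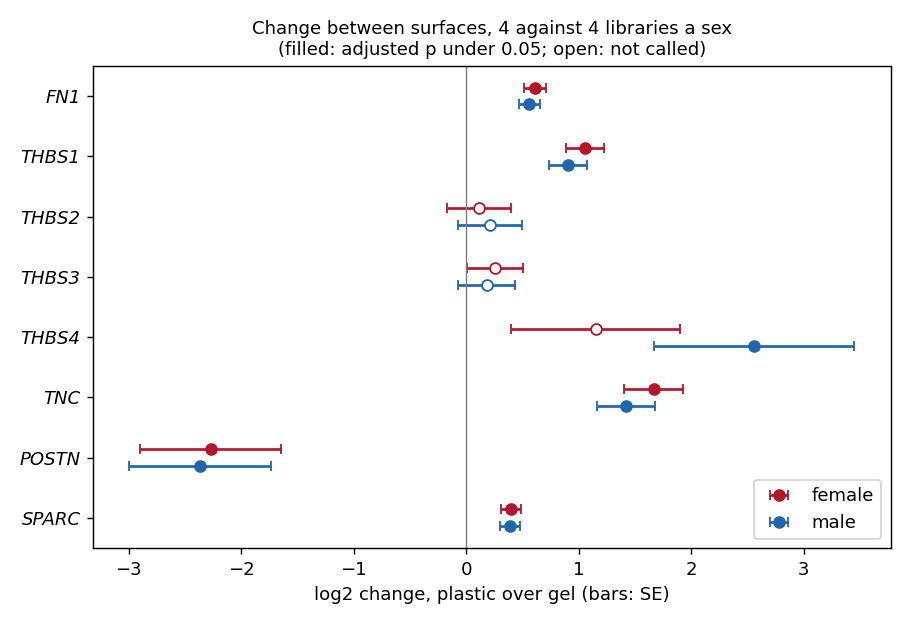
Log2 change between plastic and gel (horizontal axis, with SE) of the 8 genes in female and male cells, filled where the adjusted p was under 0.05. The female and male points of each gene lie within each other's SE except those of THBS4, and POSTN is the gene to the left of 0 in both sexes.

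The surface changes did not differ detectably between the sexes for any of the 8 genes. By edgeR 0 of 8 were called in the test of the difference and 0 had an unadjusted p under 0.05, and DESeq2 and limma-voom called 0. Over all tested genes 0% were called in that test, and 4.36% had an unadjusted p under 0.05. The difference of the log2 changes, female minus male, was 0.050 for FN1 (95% interval -0.24 to 0.34), 0.15 for THBS1 (-0.36 to 0.66), 0.25 for TNC (-0.53 to 1.03) and 0.0084 for SPARC (-0.27 to 0.29). For POSTN the difference was 0.091 (-1.75 to 1.94), and with the replicate number as a block it was 0.20 (SE 0.38, 95% interval -0.74 to 1.14 with 6 residual degrees of freedom, adjusted p = 0.84).

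Female and male cells were also compared on the same surface. On plastic 0 of 8 genes were called by edgeR, against 0.124% of all tested genes, and on gel 0 of 8, against 0.103%. An unadjusted p under 0.05 was found for 0 of the 8 on plastic, against 1.95% of all tested genes, and for 0 on gel, against 3.85%, and DESeq2 and limma-voom called 0. FN1 differed between female and male cells by a log2 of 0.0098 on plastic (95% interval -0.20 to 0.22) and of -0.040 on gel (-0.25 to 0.17). POSTN was higher on average in female cells on both surfaces, at 641 ± 464 CPM in female plastic and 282 ± 126 CPM in male plastic, and at 3092 ± 3006 CPM in female gel and 1449 ± 524 CPM in male gel (SD, n = 4 each). These POSTN groups overlapped, with differences of 1.18 on plastic (95% interval -0.14 to 2.51, adjusted p = 0.98) and 1.09 on gel (-0.23 to 2.41, adjusted p = 0.852). THBS4 did not overlap between female gel and male gel, where its counts were 7 to 19 and 0 to 6, and its log2 difference of 1.79 was not called (SE 0.91, adjusted p = 0.852). That is 1 of 8 genes without overlap on gel, against 2.03% of all tested genes. On plastic 0 of 8 were without overlap, against 2.85%.

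Replicates of one group differed far more in some of these genes than in others. The SD of log2 CPM within groups was 0.093 for FN1 and 0.095 for SPARC, beside a median of 0.26 over all tested genes. THBS1 was near that median at 0.24, THBS3 at 0.41, TNC at 0.42 and THBS2 at 0.47 were above it, and POSTN reached 0.99. THBS4, at 1.14, had few reads. The POSTN value was at the 96.8 percentile of all tested genes and the FN1 value at 3.01.

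Within each group the replicate numbers with the highest POSTN had the lowest THBS2. POSTN was highest in female 1 and female 4 of the female groups and in male 4 of the male groups, on both surfaces. THBS2 was lowest in the same replicate numbers in all 4 groups. The split was not limited to these genes. A principal component analysis of the 500 most variable genes set the same replicate numbers apart on PC2, with 16.3% of the variance. Their PC2 scores were 7.53 to 24.9, against -20.0 to -2.50 in all other libraries. How many of all tested genes split in this way was not counted. On plastic POSTN had 1081, 1001 and 460 CPM in female 1, female 4 and male 4, and THBS2 had 161, 179 and 158 CPM there. In the other plastic libraries POSTN had 188 to 282 CPM and THBS2 224 to 349 CPM. On gel the separation held within each sex, but across the sexes it was narrow or absent. POSTN had 7524, 2082 and 2042 CPM in female gel 1, female gel 4 and male gel 4, against 837 to 1925 CPM in the other gel libraries. THBS2 had 186, 150 and 117 CPM in those libraries, against 184 to 322 CPM in the others, so that female gel 1 overlapped with male gel 2. These 3 replicate numbers also had the highest sums of 12 endothelial markers, at 188 to 400 CPM on plastic and 143 to 173 CPM on gel, where the other 5 had 61.7 to 114 CPM on plastic and 55.7 to 86.5 CPM on gel. These sums rest mainly on PECAM1 and CDH5, with medians of 53.2 and 23.8 CPM over all libraries. The other endothelial markers had medians of 0.0958 to 6.23 CPM. The same replicate numbers had the lowest smooth muscle and pericyte sums of their group. On plastic these sums were 1168, 1256 and 1472 CPM in female 1, female 4 and male 4, and 1885 to 2146 CPM in the others. On gel the gap was narrow in male cells, at 364 CPM in male 4 and 366 CPM in male 2. Striated muscle sums were lowest there too, at 4.66, 7.42 and 12.7 CPM on plastic, and 47.8 to 97.1 CPM in the others. On plastic these sums were mostly ACTC1, which had 3.15 to 67.3 CPM in female and 11.5 to 95.5 CPM in male plastic. Of the other markers of that list, TNNI3 had 0.849 to 2.05 CPM in all libraries. TNNT2, MYH7, MYL2, MYH1 and CKM were at 0 in 12 to 16 libraries. The part of any of these cell types in the POSTN and THBS2 levels was not tested. Without the 6 libraries of these replicate numbers, left out once their values were known, POSTN changed between plastic and gel by -2.51 in female cells (SE 0.40, adjusted p = 0.00201) and by -2.48 in male cells (SE 0.33, adjusted p = 0.000385). The number of called genes among the 8 was then 5 in female and 6 in male cells, as with all libraries. Only female 2 and female 3 remained in each female group. The libraries left out held the highest POSTN of each group, so the smaller SE partly reflects that choice.

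**Figure D4:**
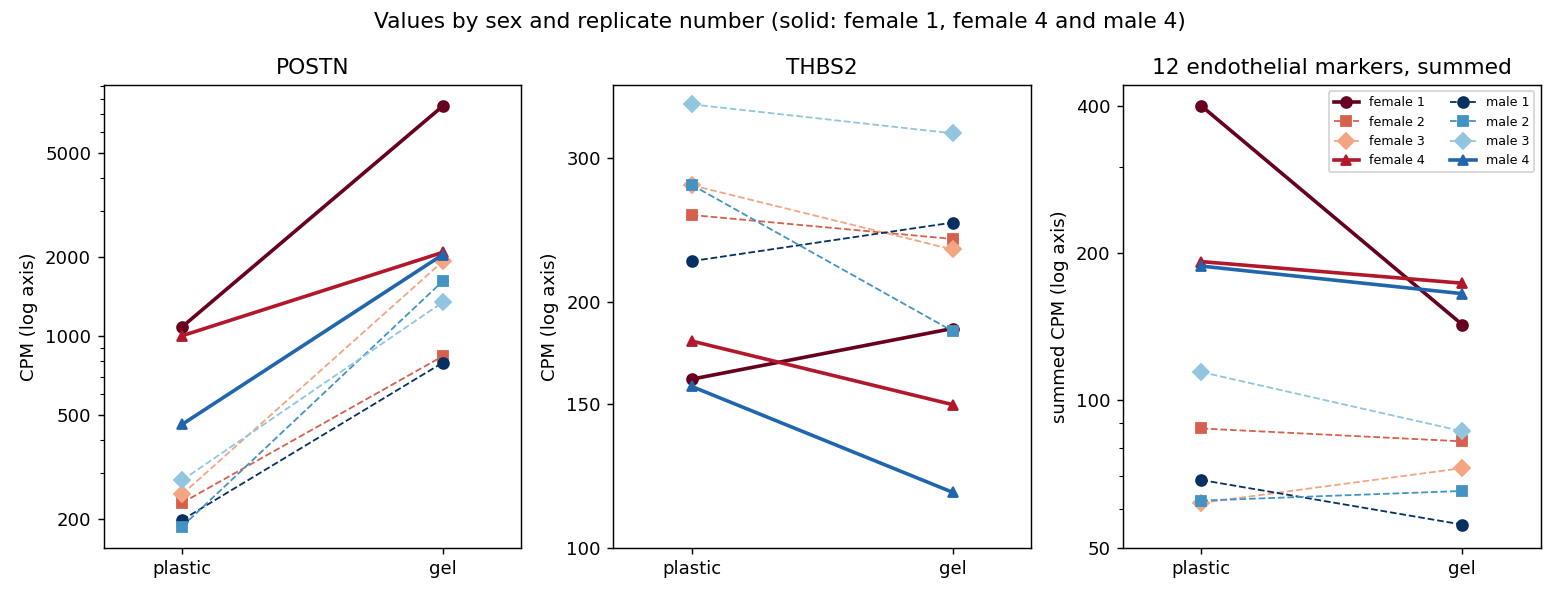
CPM of POSTN, CPM of THBS2 and the summed CPM of 12 endothelial markers (log axes) on plastic and on gel, with a line for each sex and replicate number. The solid lines of female 1, female 4 and male 4 run highest for POSTN within their sex, lowest for THBS2 within their sex, and highest for the endothelial sum.

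Genes that act with these glycoproteins were followed in 6 lists, described by counts. Beside these counts, 12.7% of all tested genes were called higher and 11.3% lower in female cells. In male cells 12.9% were called higher and 12.9% lower. Of the tenascin and thrombospondin relatives TNXB, TNN, TNR and COMP, 2 were tested. COMP, cartilage oligomeric matrix protein or thrombospondin 5, fell in both sexes to 1.24 ± 0.38 CPM in female plastic, against 3.03 ± 0.54 CPM in female gel, and to 1.27 ± 0.36 CPM in male plastic, against 2.96 ± 1.96 CPM in male gel. Its log2 change was -1.29 in female (SE 0.38, adjusted p = 0.0211) and -1.23 in male cells (SE 0.38, adjusted p = 0.0265). COMP had few reads, at 111 to 335 per group of 4 libraries. The male surfaces overlapped, at up to 1.69 CPM on plastic and 1.52 to 5.79 CPM on gel.

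Of 15 tested genes of 16 other matricellular proteins, 7 rose and 4 fell on plastic in female cells, and 6 rose and 2 fell in male cells. The median log2 change was 0.46 in female and 0.48 in male cells. The largest rise was that of NOV (the symbol of CCN3 in the table, an adhesive CCN protein), with log2 changes of 2.85 in female (SE 0.50, adjusted p = 0.000494) and 3.05 in male cells (SE 0.50, adjusted p = 0.000292). WISP1 (CCN4, a WNT-induced CCN protein) rose by 1.95 in female and 1.69 in male cells, and CTHRC1, a collagen triple helix protein of injured vessels, by 1.07 in female and 0.80 in male cells. SMOC1, a relative of SPARC that modulates BMP signals, fell to 7.90 ± 4.09 CPM in female plastic, against 65.9 ± 21.2 CPM in female gel, and to 6.94 ± 1.71 CPM in male plastic, against 50.7 ± 16.8 CPM in male gel. Its log2 change was -3.06 in female (adjusted p = 8.6e-06) and -2.86 in male cells (adjusted p = 1.48e-05). SPON1 (spondin 1) changed by -1.03 in female and -1.08 in male cells, and SPON2 by -0.90 in female cells and, without a call, by -0.47 in male cells.

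Of 15 tested receptor genes of 17, 7 rose and 2 fell on plastic in female cells, and 4 rose and 2 fell in male cells. Both chains of the main fibronectin receptor rose: ITGB1 to 7286 ± 1170 CPM in female plastic, against 2515 ± 190 CPM in female gel, and ITGA5 to 1379 ± 427 CPM in female plastic, against 507 ± 50.8 CPM in female gel. In male cells ITGB1 averaged 6608 ± 261 CPM on plastic and 2801 ± 682 CPM on gel, and ITGA5 1530 ± 71.9 CPM on plastic and 448 ± 117 CPM on gel. The log2 changes of ITGB1 were 1.53 (SE 0.15, adjusted p = 2.74e-06) in female and 1.24 (SE 0.15, adjusted p = 1.76e-05) in male cells. ITGA4, a chain of another fibronectin receptor, rose by 1.32 in female and 1.56 in male cells. The heparan sulfate proteoglycans SDC4 and SDC1, co-receptors of fibronectin and thrombospondin, fell, SDC4 by log2 changes of -1.23 in female (adjusted p = 8.05e-07) and -1.04 in male cells (adjusted p = 3.77e-06), and SDC1 by -0.91 in female and -0.74 in male cells. CD47, a receptor of THBS1, rose by 0.31 in female cells (adjusted p = 0.0227) and had a change of 0.14 in male cells (adjusted p = 0.273). CD36, the other receptor named for THBS1, had 64 reads over the 16 libraries and was not tested.

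Of 12 assembly, crosslinking and binding partners, all tested, 5 rose and 3 fell in female cells and 6 rose and 3 fell in male cells. TNS1, the tensin of fibrillar adhesions where fibronectin fibrils form, rose by 1.52 in female (SE 0.15) and 1.75 in male cells (SE 0.16). FERMT2 (kindlin 2, an integrin activator) rose by 1.33 in female and 1.05 in male cells, and FBN1 (fibrillin 1) by 0.92 in female and 0.81 in male cells. The fibronectin-binding FBLN1 (fibulin 1) changed by -1.14 in female and -0.93 in male cells, DCN (decorin, also in the fibroblast list) by -1.41 in female and -1.33 in male cells, and BMP1, the procollagen protease that periostin binds, by -0.52 in female and -0.42 in male cells. All 3 were called lower in both sexes.

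Of 9 tested proteases of 10, 1 rose and 4 fell in female cells, and 2 rose and 2 fell in male cells. MMP2 (gelatinase A) changed by -0.85 in female and -0.86 in male cells and the membrane-bound MMP14 by -0.43 in female and -0.43 in male cells. CTSB (cathepsin B) fell in female cells (-0.64, adjusted p = 0.00267) and had a change of -0.27 in male cells (adjusted p = 0.156). CTSK (cathepsin K) rose by 0.41 in female and 0.37 in male cells, and HTRA1, a fibronectin-cleaving serine protease, by 0.51 in male cells (adjusted p = 0.0208), with 0.37 in female cells (adjusted p = 0.0887).

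Of 16 inducers and transcription regulators, all tested, 7 rose and 2 fell in female cells and 5 rose and 2 fell in male cells. TGFB3 rose to 719 ± 178 CPM in female plastic, against 137 ± 33.6 CPM in female gel, and to 834 ± 171 CPM in male plastic, against 138 ± 41.2 CPM in male gel. TGFB2 rose by 2.04 in female and 1.75 in male cells. TGFB1, which is usually studied as the inducer of FN1, POSTN and TNC, had changes of 0.077 in female (adjusted p = 0.879) and 0.18 in male cells (adjusted p = 0.695). PRRX1, a transcription factor of fibroblasts, fell by 0.77 on the log2 scale in female cells and by 1.20 in male cells, and SMAD3 fell by 0.41 in female and 0.38 in male cells. No gene of the 6 lists was called in the test of the difference between the sexes, as 0 of all tested genes were.

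**Figure D5:**
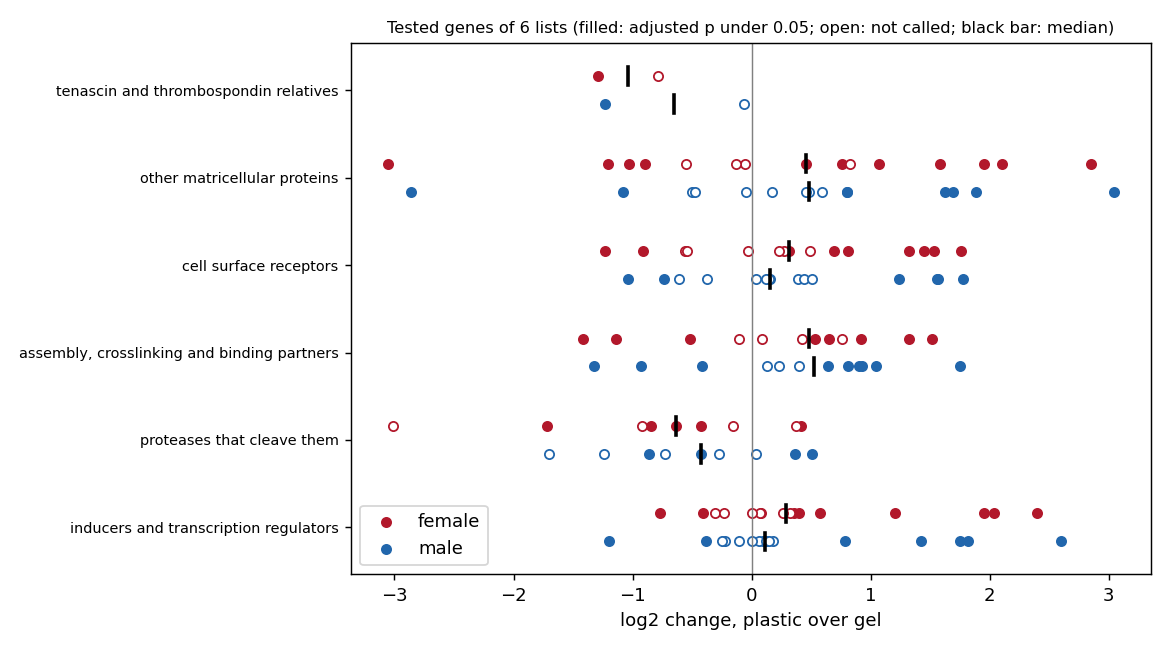
Log2 change between plastic and gel (horizontal axis) of each tested gene of the 6 lists in female and male cells, filled where the adjusted p was under 0.05, with the median of each list as a black bar. Receptors, partners and regulators hold both risers and fallers, and the 2 tested relatives lie left of 0 in both sexes.

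The genes with profiles most like those of 4 members were named by the smallest root-mean-square difference of mean-centred log2 CPM over the 16 libraries, among 9920 candidates with a symbol and at least 5 CPM in their highest group. For FN1 they were PCYT1A (a phosphatidylcholine synthesis enzyme) at 0.079, EZR (ezrin, a membrane-actin linker) at 0.10 and GNG12 (a G protein gamma subunit) at 0.10, beside a median of 0.40 over all candidates. For THBS1 they were MYO1E (an unconventional myosin) at 0.12, ARHGAP29 at 0.16 and SYNC (syncoilin, which binds desmin) at 0.16, beside 0.61. For TNC they were SELENOM, SHB and FADS3, at 0.31, 0.31 and 0.32, beside 0.91. For POSTN the nearest were farther away, with PLA2R1 (a phospholipase receptor) at 0.54, ANGPT2 (angiopoietin 2) at 0.60 and PLAT (tissue plasminogen activator) at 0.64, beside 1.49.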

How the data were processed

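The authors deposited raw counts per gene, whole numbers with a column per sample. Per the submitters' processing notes, FastQC 0.11.5, Trimmomatic 0.36, HISAT2 2.1.0, SAMtools 1.3.1 and featureCounts were used with Sscrofa11.1; the strand setting is not given in the sources used here. Of 29576 entries, 24 with numbers for names (0.169% of counts) were dropped; all 29552 named entries have a RefSeq symbol, and RefSeq coordinates on the same build were used.

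After filterByExpr, edgeR 4.0.16 (R 4.3.3) fitted 4 group means to the 16 libraries, leaving 12 residual degrees of freedom, and its quasi-likelihood test was adjusted by Benjamini-Hochberg over 14530 genes. SE is the log2 change over the root of F, and 95% intervals use t with 12 degrees of freedom. No library copied another of its group (chi-square per degree of freedom 10.5 to 87.6). Alternatives were RLE factors, library totals, DESeq2 1.42.0, limma-voom (limma 3.58.1), other filters, only the 8 libraries compared, a replicate block, and leaving out libraries; the test was tested on simulated data. Whether a replicate number means one animal for plastic and gel is not given in the labels. Same-numbered libraries of a sex had deviations from their group means that correlated by 0.13 to 0.49 in all 8 pairs. The numbers were therefore taken to pair them in the replicate block and in changes by replicate number. The main fit does not use the pairs. Labels call the replicates biological, and p-values of the main fit measure the spread between replicates of a group. With the block, the SE of the surface change was 0.13 for THBS2 and 0.13 for THBS3 in each sex. In the main fit it was 0.29 and 0.25. Neither gene was called in the edgeR fit with the block (adjusted p = 0.123 to 0.581).

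The members, gene lists and tests were chosen with earlier results of these data known. Named genes were all 8 members, up to 3 called genes per list and direction by adjusted p, and the 3 nearest profiles of 4 members; 1 gene that this rule names is not reported here. TGFB1, CD47 and CD36 were named outside that rule after their values were seen. Plots used Python 3.11.15 and matplotlib 3.10.9.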

Additional observations from a re-analysis of the deposited data

Results flagged for a closer look

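THBS1 in male plastic 2, at 27642 CPM, stood apart from the other male plastic libraries, which had 34070 to 34722 CPM. Its gap to the nearest of them was 0.908 of the range of the group, above Dixon's 95% critical value for 4 samples. This was 1 flag among 32 groups of 4 examined, and chance flags about 1 group in 20. Male plastic 2 also had the lowest TNC of the plastic libraries, at 782 CPM.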

How the results depend on the processing

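Under RLE factors, DESeq2, limma-voom, the 2 other filters, a fit restricted to the 8 libraries of a contrast, the replicate block and the 2 added settings, FN1, THBS1, TNC and POSTN kept direction and call in both sexes, and SPARC did except with library totals. The size of a change did depend on that scaling. With library totals THBS1 changed by 0.81 in female and 0.66 in male cells, TNC by 1.42 and 1.17, and POSTN by -2.51 and -2.60. Leaving out single libraries gave 4 to 5 called members of 8 in female and 5 to 6 in male cells, and 2780 to 4444 and 2859 to 3961 called genes. The replicate block gave 5 and 6 called members and 4011 and 4319 called genes, and changed no member's call; a sex contrast cannot be fitted within it. Called genes numbered 5402 in female and 5951 in male cells with library totals, and 1968 in female cells without the 6 libraries of female 1, female 4 and male 4, a fit on fewer samples.

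Signs turned only in changes that were not called, and the cause was not tested. With library totals THBS2 was at -0.13 in female and -0.038 in male cells and THBS3 at -0.062 in male cells. Without the 6 libraries the difference of changes was -0.024 for FN1, -0.033 for POSTN, -0.0068 for SPARC, -0.021 for THBS1, 0.013 for THBS2 and -0.047 for THBS3, and the sex difference on gel was 0.030 for FN1, 0.045 for TNC and 0.089 for THBS1. With no filter the difference for SPARC was -0.0041, and by limma-voom THBS4 differed between sexes on plastic by -0.79. Without single libraries the surface change of THBS2 in female cells ran from -0.022 to 0.25. The difference of changes ran from -0.29 to 1.03 for POSTN, -0.038 to 0.044 for SPARC, -0.34 to 0.11 for THBS2 and -0.13 to 0.23 for THBS3. The sex difference on plastic ran from -0.032 to 0.055 for FN1, -0.061 to 0.061 for THBS1 and -0.057 to 0.80 for THBS4. On gel it ran from -0.084 to 0.0074 for FN1, -0.27 to 0.084 for TNC, -0.32 to 0.13 for THBS2 and -0.046 to 0.31 for THBS3. THBS4 did not pass the filter of 1 CPM in 4 libraries, or the surface fits of only 8 libraries. CPM of raw totals moved 8 of 32 group levels by more than their SD. Depth limits THBS4 alone, with 0 to 36 reads per library.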
